A study of Mus musculus with 24 samples.

Results

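The suppressor of cytokine signalling genes Cish, Socs1, Socs2 and Socs3 were followed across 8 treatment groups of mouse alveolar macrophages. The 4 genes were taken by symbol from the expression tables, and all 4 were found among 17017 genes. The cells were primary alveolar macrophages, the resident phagocytes of the air spaces, from wild-type BALB/cJ mice. Total RNA was sequenced 20 h after stimulation. The 7 treated groups received recombinant IL-33, IL-13 and IL-17A together (the triple combination), IL-33 with IL-13, IL-13 with IL-17A, IL-33 with IL-17A, or IL-13, IL-33 or IL-17A alone, and the remaining group was left untreated. Each group had 3 libraries. The labels do not say if a group's libraries are from different mice or dishes; the p-values rest on the variation among the libraries and that variation may be technical.

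SOCS proteins form a negative feedback loop. Cytokine receptors activate JAK kinases and STAT transcription factors, STATs switch on SOCS genes, and the SOCS proteins bind phosphorylated receptors or kinases through an SH2 domain and recruit a ubiquitin ligase through the SOCS box. CIS, the product of Cish, and SOCS2 dock mainly on receptors that signal through STAT5, whereas SOCS1 and SOCS3 also carry a region that blocks JAK catalytic activity. IL-13 signals through a receptor of Il4ra and Il13ra1 to JAK kinases and STAT6, while IL-33 and IL-17A signal through MyD88 and Act1 adaptors and not directly through JAKs.

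The libraries held 9.13 to 12.9 M reads each (median 10.6 M), recovered from the deposited values, and 11569 to 12204 genes at 1 TPM or more, a unit that divides reads by gene length and scales every library to the same total. Of 14 alveolar macrophage markers 13 passed the filter on low values. Marco did not, at 0.402 ± 0.189 TPM with IL-13 and 0.252 ± 0.0635 TPM without (SD, n = 12 each). Car4, at 0.279 TPM or less in the 12 libraries without IL-13, passed only through those with it and is not counted. The other 12 markers that passed were each above 1 TPM in every library, with and without IL-13. Of these 12, 8 rose and 3 fell with IL-13, averaged over 4 backgrounds. In that average 20.0% of all genes tested were called higher and 30.9% lower. The list's summed level was 13307 to 16811 TPM in the 12 libraries with IL-13, against 6789 to 7484 TPM in the 12 without. Chil3, a chitinase-like protein that STAT6 induces, was the most abundant of them, and Siglecf, a lectin that defines these cells, averaged 296 ± 15.4 TPM with IL-13 and 527 ± 18 TPM without (SD, n = 12 each). The first principal component, with 26.4% of the variance, separated the libraries with IL-13 from those without. On the second, with 8.89%, triple combination replicate 2, untreated replicate 1 and IL-17A replicate 2 lay farthest out. Libraries of 1 group differed by more than sampling noise in every pair, and each was counted as 1 replicate.

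In the mm10 build Cish lies at chr9:107296026-107302784 on the plus strand, Socs1 at chr16:10782240-10785536, Socs2 at chr10:95385362-95417180 and Socs3 at chr11:117966079-117970047, the last 3 on the minus strand. Cish overlaps the pseudogene Gm17040 and the antisense gene Gm17041 on the other strand. As the handling of strand is not given in the sources used here, reads of these genes and of Cish cannot be told apart. RefSeq promoter windows of GRCm38.p6, 250 bases before to 50 after the start site, were matched for 3 of the 4 genes. They are shown because the 4 genes moved together with IL-13. Capitals mark the palindromic STAT-type element TTCNNNGAA in Cish and Socs3 and the interferon response type element GAAANNGAAA in Socs1. Both strands were searched.
Cish, chr9:107296409-107296708, plus strand: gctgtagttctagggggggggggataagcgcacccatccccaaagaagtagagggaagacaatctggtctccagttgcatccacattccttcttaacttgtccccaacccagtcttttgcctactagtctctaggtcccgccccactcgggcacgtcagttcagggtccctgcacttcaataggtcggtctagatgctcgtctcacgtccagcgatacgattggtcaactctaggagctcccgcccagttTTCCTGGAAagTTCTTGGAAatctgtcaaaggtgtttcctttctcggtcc
Socs1, chr16:10785487-10785786, minus strand: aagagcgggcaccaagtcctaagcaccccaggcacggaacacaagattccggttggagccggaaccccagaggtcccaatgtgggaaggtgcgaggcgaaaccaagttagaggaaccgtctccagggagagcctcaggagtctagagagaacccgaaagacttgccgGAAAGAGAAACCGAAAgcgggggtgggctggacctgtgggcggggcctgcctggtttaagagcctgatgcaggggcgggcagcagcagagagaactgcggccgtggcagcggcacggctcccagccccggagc
Socs3, chr11:117969317-117969616, minus strand: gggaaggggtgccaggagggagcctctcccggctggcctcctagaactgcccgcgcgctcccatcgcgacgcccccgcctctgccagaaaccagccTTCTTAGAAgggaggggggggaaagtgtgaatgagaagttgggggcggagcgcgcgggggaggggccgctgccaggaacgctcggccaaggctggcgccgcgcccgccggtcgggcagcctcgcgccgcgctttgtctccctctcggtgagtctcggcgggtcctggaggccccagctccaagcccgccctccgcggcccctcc
The Cish window holds the STAT-type element 2 times, as TTCCTGGAA from base 0 to base 8 and as TTCTTGGAA from base 11 to base 19, counted from the start site at 0. The Socs3 window holds it 1 time, as TTCTTAGAA from base -154 to base -146. Of 32851 windows of the same length, 8.30% held TTCNNNGAA at least 1 time and 0.457% at least 2 times. The Socs1 window holds 2 overlapping copies of GAAANNGAAA, GAAAGAGAAA from base -83 to base -74 and GAAACCGAAA from base -77 to base -68, an element found at least 1 time in 3.44% of windows and at least 2 times in 0.225%. The related form with a spacer longer by 1 base, TTCNNNNGAA, had no match in these windows and at least 1 match in 6.95% of all. These are matches of letters, and binding was not measured.

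**Figure D1:**
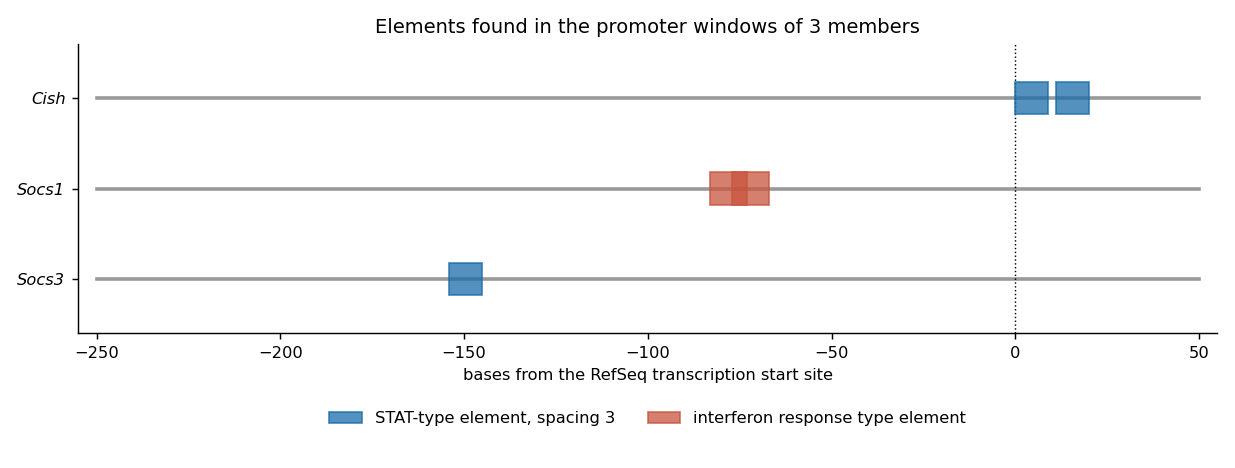
Positions of the matched elements in the promoter windows of Cish, Socs1 and Socs3, in bases from the RefSeq start site (horizontal axis), 1 row per gene. Blue boxes are TTCNNNGAA and red boxes GAAANNGAAA; the pair in Cish lies just after the start site, the overlapping pair in Socs1 between -83 and -68 and the single match in Socs3 between -154 and -146.

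Among the inhibitors that dock on receptors, Cish showed by far the larger response to IL-13. Its level was 139.9, 125.8 and 134.7 TPM in the 3 libraries with all 3 cytokines, 116.3, 132.8 and 129.1 TPM with IL-33 and IL-13, 146.4, 132.6 and 129.4 TPM with IL-13 and IL-17A, and 141.6, 143.1 and 119.8 TPM with IL-13 alone. It was 1.29, 1.60 and 1.005 TPM with IL-33 and IL-17A, 0.743, 0.985 and 0.971 TPM with IL-33, 0.638, 1.82 and 1.24 TPM with IL-17A, and 0.777, 1.73 and 0.298 TPM in untreated cells. Every library with IL-13 was high and every library without it was at 1.82 TPM or less, and the lowest of the high libraries was 63.9 times the highest of the low ones. Behind these values stood 720 to 1075 reads per library with IL-13, against 2 to 16 reads without it, so the low level carries a wide counting error. On the log2(TPM + 1) scale, which understates changes of low genes, IL-13 against untreated raised Cish by 6.20 ± 0.20 (SE; limma, adjusted p = 2.32e-14). A fit on the recovered reads put the same contrast at 160-fold, with a 95% interval of 88.6 to 290-fold.

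Socs2, which restrains growth hormone and other STAT5 signals, responded in the same direction by a smaller amount. Its level was 4.52, 4.83 and 5.33 TPM with all 3 cytokines, 5.21, 4.83 and 5.57 TPM with IL-33 and IL-13, 6.04, 5.03 and 5.25 TPM with IL-13 and IL-17A, and 5.73, 5.83 and 5.18 TPM with IL-13 alone. It was 1.17, 1.60 and 1.53 TPM with IL-33 and IL-17A, 1.07, 1.43 and 1.29 TPM with IL-33, 1.14, 1.13 and 1.46 TPM with IL-17A, and 1.29, 1.34 and 1.77 TPM in untreated cells. The libraries with IL-13 were again all above those without, with no overlap, and 147 to 205 reads stood behind the high values, against 34 to 56 reads behind the low ones. IL-13 against untreated raised Socs2 by 1.42 ± 0.10 on the log2(TPM + 1) scale (SE; limma, adjusted p = 2.03e-09), and by 3.78-fold on recovered reads (95% interval 3.07 to 4.65).

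Socs1, a known brake on interferon and IL-4 type signals through its JAK-blocking region, was also higher in every library with IL-13. Its level was 24.6, 36.4 and 25.0 TPM with all 3 cytokines, 30.8, 30.5 and 27.8 TPM with IL-33 and IL-13, 26.5, 22.4 and 23.5 TPM with IL-13 and IL-17A, and 27, 30.8 and 26.2 TPM with IL-13 alone. It was 7.23, 6.55 and 8.25 TPM with IL-33 and IL-17A, 9.14, 5.05 and 8.89 TPM with IL-33, 4.18, 5.83 and 8.48 TPM with IL-17A, and 3.51, 6.78 and 6.42 TPM in untreated cells. The groups with and without IL-13 did not overlap, and the 36.4 TPM of triple combination replicate 2, a library far out on the second component, was the highest value. The low values rested on 11 to 30 reads per library, and the high ones on 76 to 136. IL-13 against untreated raised Socs1 by 2.18 ± 0.23 on the log2(TPM + 1) scale (SE; limma, adjusted p = 4.48e-07), and by 4.99-fold on recovered reads (95% interval 3.28 to 7.60).

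Socs3, which binds the gp130 receptor chain and blocks JAKs there, had the fewest reads of the 4 genes in the libraries with IL-13, 36 to 58, against 8 to 26 in those without. Its level was 12.1, 11.8 and 11.5 TPM with all 3 cytokines, 12.4, 13.95 and 14.1 TPM with IL-33 and IL-13, 12.7, 10.8 and 12.3 TPM with IL-13 and IL-17A, and 11.4, 10.2 and 9.23 TPM with IL-13 alone. It was 5.49, 3.21 and 2.28 TPM with IL-33 and IL-17A, 5.06, 3.64 and 6.40 TPM with IL-33, 3.91, 5.03 and 3.52 TPM with IL-17A, and 2.65, 1.96 and 3.81 TPM in untreated cells. Here too the libraries with IL-13 all lay above those without, but the gap was the narrowest of the 4 genes, with the lowest high value 1.44 times the highest low one. IL-13 against untreated raised Socs3 by 1.59 ± 0.21 on the log2(TPM + 1) scale (SE; limma, adjusted p = 6.79e-06), and by 3.67-fold on recovered reads (95% interval 2.47 to 5.43).

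**Figure D2:**
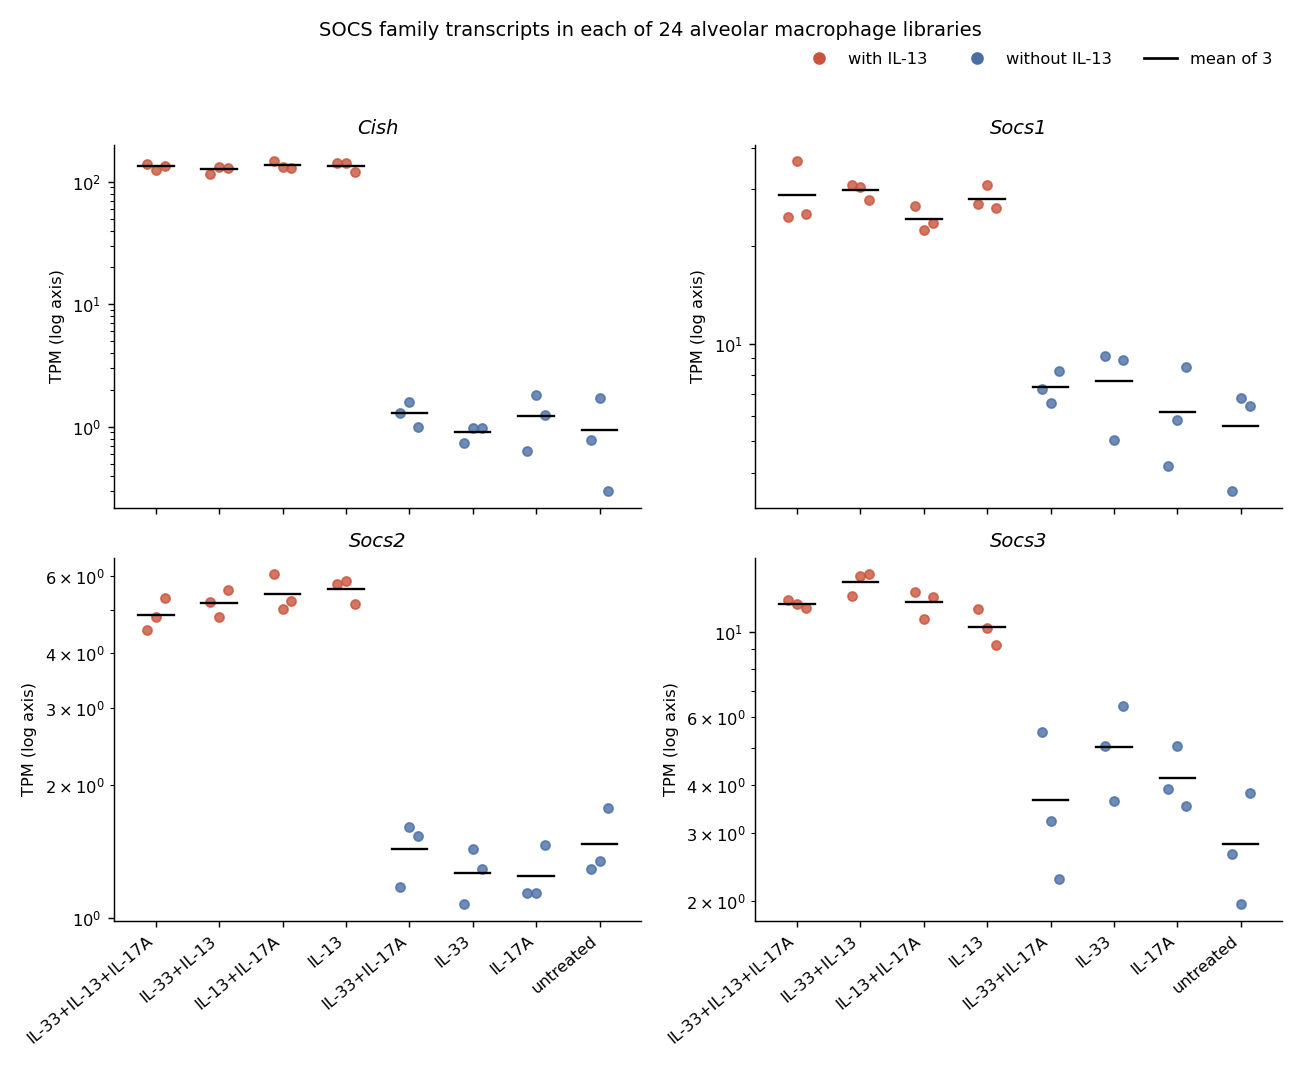
TPM of Cish, Socs1, Socs2 and Socs3 (vertical log axis, 1 panel per gene) in each of the 24 libraries, grouped by treatment; points are libraries and lines the mean of 3. In every panel the 12 red points with IL-13 lie above the 12 blue points without it, for Cish between 116.3 and 146.4 TPM against 0.298 to 1.82 TPM.

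All 4 members were called higher with IL-13 against untreated, a contrast in which 29.8% of the 13215 genes tested were called in either direction and 14.1% as higher. All 4 also had every library with IL-13 above every library without it, which held for 6.18% of genes tested. The response was present on every background. Added to IL-33, IL-13 raised Cish by 6.06 on the log2(TPM + 1) scale, Socs2 by 1.46, Socs1 by 1.86 and Socs3 by 1.29. Added to IL-17A, it raised Cish by 5.97, Socs2 by 1.52, Socs1 by 1.85 and Socs3 by 1.33. Added to IL-33 and IL-17A together, it raised Cish by 5.88, Socs2 by 1.28, Socs1 by 1.81 and Socs3 by 1.52. The highest of the 12 limma adjusted p values was 0.000107, for Socs3 on the IL-33 background, and the share of all genes called was 23.9% when IL-13 was added to IL-33, 29.8% to IL-17A and 32.7% to both. On the log2(TPM + 1) scale Cish had the largest fold change of all genes tested in each of these contrasts. That scale holds down genes nearer to 0, such as Ocstamp with 29.1 ± 5.43 TPM with IL-13 and 0.0256 ± 0.0599 TPM without, and Rnase2a with 62.5 ± 11.3 and 0.290 ± 0.525 TPM (SD, n = 12 each), whose ratios of means were larger than that of Cish. All 4 members were also called in IL-13 with IL-17A, IL-33 with IL-13, and all 3 cytokines against untreated cells, where 29.5%, 25.0% and 28.1% of genes were called; these contrasts share the untreated libraries.

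Averaged over the 4 backgrounds, IL-13 raised Cish by 6.03 ± 0.10 on the log2(TPM + 1) scale, Socs1 by 1.93 ± 0.12, Socs2 by 1.42 ± 0.05 and Socs3 by 1.43 ± 0.10 (SE), all called by limma with adjusted p of at most 7.5e-10. In this average 50.9% of genes were called, 20.0% higher (2644) and 30.9% lower (4079), and median-ratio scaling changed that split to 3433 higher and 3361 lower. On recovered reads the averaged change was 125-fold for Cish (95% interval 95.3 to 164), 4.20-fold for Socs1 (3.46 to 5.10), 3.95-fold for Socs2 (3.55 to 4.40) and 3.13-fold for Socs3 (2.63 to 3.73). Cish averaged 132.6 ± 9.25 TPM with IL-13 and 1.09 ± 0.461 TPM without (SD, n = 12 each). Socs1 averaged 27.6 ± 3.92 TPM with IL-13 and 6.69 ± 1.83 TPM without, Socs2 5.28 ± 0.451 and 1.35 ± 0.214 TPM, and Socs3 11.9 ± 1.4 and 3.91 ± 1.35 TPM (SD, n = 12 each). Cish reached 1 TPM in 6 of the 12 libraries without IL-13, and each of the other 3 genes in all 12. In bulk RNA, fewer cells of a type and less RNA per cell cannot be told apart.

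Markers of other cell types were followed beside the SOCS genes. Counts are of calls in the IL-13 average, in which 20.0% of all genes tested were called higher and 30.9% lower. The summed monocyte and interstitial macrophage list, 8 of 10 genes tested, was 684 to 780 TPM with IL-13, against 1571 to 1752 TPM without, most of it Cd14, and 5 fell. The granulocyte and mast cell list, 3 of 12 tested, was 67.3 to 128 TPM with IL-13, against 137 to 178 TPM without, most of it S100a8, and all 3 tested fell. The epithelial list, 4 of 10 tested, was 9.26 to 15.9 TPM with IL-13, against 17.5 to 20.5 TPM without, and 3 fell. The fibroblast list, 2 of 9 tested, was 13.1 to 23.8 TPM with IL-13, against 8.36 to 11.6 TPM without, with Fn1 higher and Pdgfra lower. The endothelial list, 1 of 6 tested, was 6.44 to 12.02 TPM with IL-13, against 8.45 to 12.4 TPM without, and the dendritic cell list, 1 of 6 tested, was 1.47 to 4.81 TPM, against 2.23 to 4.34 TPM. The lymphocyte list, with values for 2 of 11 genes and 0 past the filter, summed to at most 0.354 TPM with IL-13 and 0.445 TPM without. No marker with values here was at 0 in all libraries. The part of these cells in the SOCS response was not tested.

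IL-33 and IL-17A did not pass the test for any member on any background, among them IL-33 added to IL-17A, where 0.00757% of genes were called. In IL-33 against untreated, and in IL-17A against untreated, 0 of 13215 genes were called by limma (484 and 469 genes at an unadjusted p under 0.05, and 0 by voom in each). The largest member difference was that of Socs3 with IL-33, 5.03 ± 1.38 TPM with IL-33 and 2.81 ± 0.935 TPM in untreated cells (SD, n = 3 each), where the libraries overlapped. Its log2(TPM + 1) difference was 0.67, with a 95% interval of 0.23 to 1.10, an unadjusted limma p of 0.00488 and an adjusted p of 1. Socs1 differed by 0.41 (-0.08 to 0.89) with IL-33, Socs2 by -0.12 (-0.33 to 0.09) and Cish by 0.04 (-0.38 to 0.46). That scale compresses the low Cish level, and on recovered reads its interval was 0.524 to 2.65-fold with IL-33 and 0.670 to 3.07-fold with IL-17A. With IL-17A against untreated, Socs3 differed by 0.46 (0.02 to 0.89), Cish by 0.24 (-0.18 to 0.66), Socs1 by 0.12 (-0.36 to 0.61) and Socs2 by -0.13 (-0.35 to 0.08). With both cytokines against untreated Socs1 differed by 0.38 (-0.10 to 0.86), Cish by 0.31 (-0.11 to 0.73), Socs3 by 0.26 (-0.17 to 0.70) and Socs2 by -0.02 (-0.23 to 0.19). There too 0 genes were called by limma, and voom called 0, with 501 at an unadjusted p under 0.05. Cish rested on 2 to 16 reads per library in these groups, so changes within its intervals were not detectable at this depth.

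In the presence of IL-13, IL-33 changed other genes but no SOCS member was called. Averaged over IL-17A, 926 genes were called for IL-33 with IL-13, 7.01% of those tested, and the members differed by 0.17 (-0.13 to 0.48, Socs3), 0.15 (-0.19 to 0.49, Socs1), -0.06 (-0.36 to 0.24, Cish) and -0.11 (-0.26 to 0.04, Socs2) on the log2(TPM + 1) scale. In the same contrast 5 of the 15 tested STAT6 targets fell, Ch25h by 0.46 and Chil3 by 0.24 among them. The 15 include Retnla, Ccl24, Arg1 and Ccl17, which passed the filter only through libraries with IL-13. Both sides of this contrast held IL-13. Socs3 had all 3 libraries with IL-33 and IL-13 above the 3 with IL-13 alone, 13.5 ± 0.951 TPM and 10.3 ± 1.10 TPM (SD, n = 3 each), as did 8.88% of genes tested. That difference of 0.36 (-0.08 to 0.80) had a limma adjusted p of 0.591, in a contrast where 340 genes, 2.57%, were called. When IL-33 was added to IL-13 and IL-17A, Socs3 differed by -0.01 (-0.45 to 0.43), with 3.55% of genes called. For IL-17A with IL-13, averaged over IL-33, 0 genes were called by limma and 0 by voom, with 608 at an unadjusted p under 0.05, and the members' differences ran from -0.14 (-0.48 to 0.20) for Socs1 to 0.05 (-0.25 to 0.35) for Cish.

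**Figure D3:**
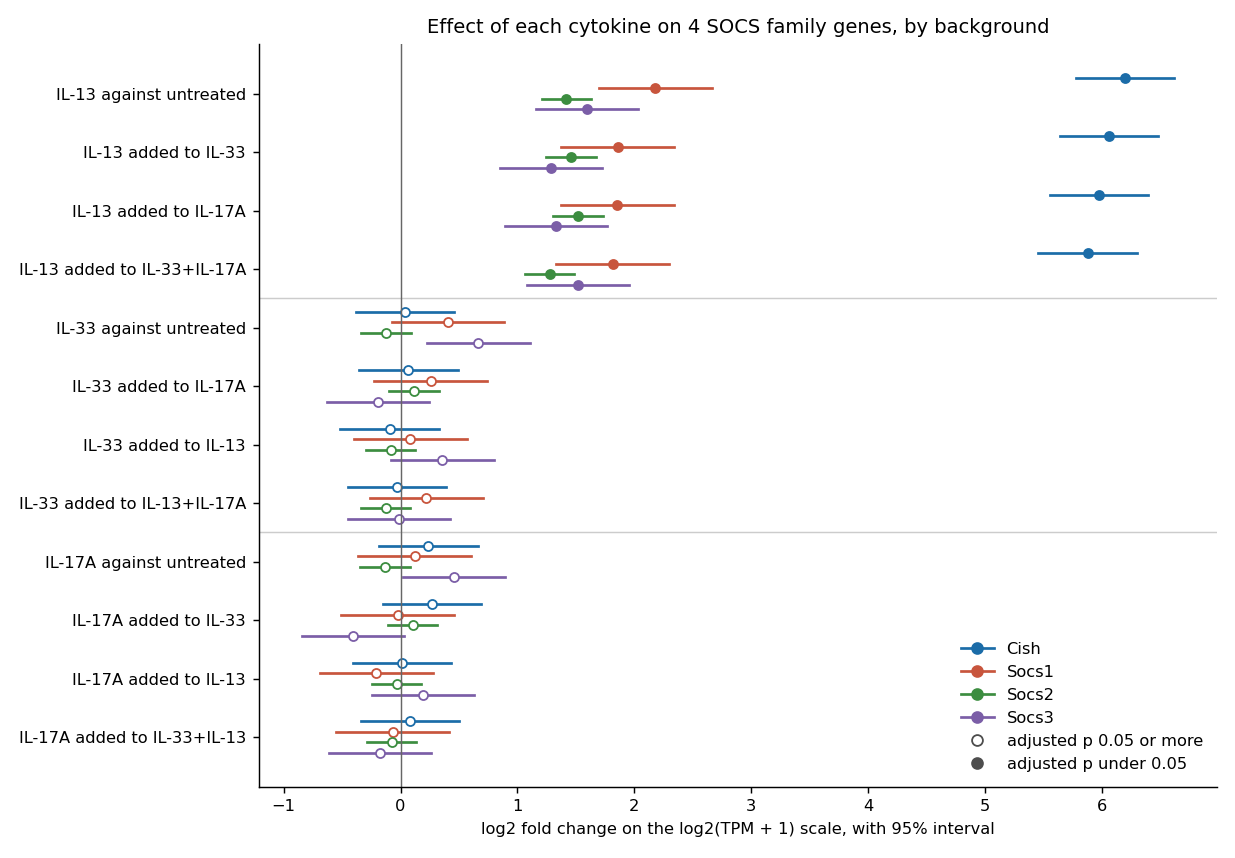
Effect of IL-13, IL-33 and IL-17A on Cish, Socs1, Socs2 and Socs3 on each background, as the log2 fold change on the log2(TPM + 1) scale (horizontal axis) with its 95% interval. Filled points passed adjusted p under 0.05 in limma: all 16 points of IL-13 are filled, with Cish between 5.88 and 6.20, and all points of IL-33 and IL-17A are open.

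No member had an interaction past the test. For IL-33 by IL-13, where 472 genes (3.57%) were called, the terms were -0.18 (-0.66 to 0.30) for Socs1, -0.11 (-0.53 to 0.31) for Cish, -0.10 (-0.31 to 0.11) for Socs2 and -0.06 (-0.50 to 0.37) for Socs3. For IL-13 by IL-17A they were -0.20 (-0.62 to 0.22) for Cish, -0.19 (-0.67 to 0.30) for Socs1, -0.04 (-0.25 to 0.17) for Socs2 and -0.02 (-0.45 to 0.42) for Socs3. On recovered reads the Cish intervals were wider, at -0.21 (-0.99 to 0.57) for IL-33 by IL-13 and -0.40 (-1.17 to 0.38) for IL-13 by IL-17A. Differences in the IL-13 response between backgrounds were not detectable within these intervals. Socs3 had the largest IL-33 by IL-17A term, -0.61 (-1.05 to -0.18), with an unadjusted limma p of 0.00847 and an adjusted p of 1. For Socs3 without IL-13, the level was 3.66 ± 1.65 TPM with both cytokines, 5.03 ± 1.38 TPM with IL-33, 4.16 ± 0.784 TPM with IL-17A and 2.81 ± 0.935 TPM in untreated cells (SD, n = 3 each), and all 4 groups overlapped. For IL-13 by IL-17A, for IL-33 by IL-17A and for the three-way term 0 genes passed in limma and 1, 0 and 0 in voom, with 665, 409 and 535 genes at an unadjusted p under 0.05. The three-way terms of the members ran from -0.28 (-0.70 to 0.14) for Socs2 to 0.49 (-0.38 to 1.36) for Socs3.

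The order of the group means differed among the genes. For Cish, Socs1 and Socs2 neighbouring groups overlapped throughout the 4 with IL-13 and throughout the 4 without. For Socs3, IL-13 alone was the lowest of the groups with IL-13 and did not overlap the next, the triple combination at 11.8 ± 0.271 TPM, against 10.3 ± 1.10 TPM with IL-13 alone (SD, n = 3 each); in the same pair of groups 5.55% of genes tested had all 3 triple combination libraries above the 3 with IL-13 alone.

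The response of Cish was also larger than that of each other member when members were compared within a library. For each pair, the log2 ratio of the TPM values was set against IL-13 status over 12 libraries with and 12 without by a two-sided permutation test with 100000 resamples, a test chosen after the data were seen, with Benjamini-Hochberg adjustment over the 6 pairs. The IL-13 response of Cish exceeded that of Socs1 by 4.98 ± 0.24 (SE) on the log2 scale, that of Socs2 by 5.09 ± 0.24 and that of Socs3 by 5.39 ± 0.28 (adjusted p = 4e-05 in each, from 2e-05, the smallest p these permutations can give). Socs1 exceeded Socs3 by 0.42 ± 0.18 (adjusted p = 0.0494), a call that was lost in 18 of 24 repeats with 1 library left out and at 0.28 without the 3 libraries far out on the second component (adjusted p = 0.231). Socs1 and Socs2 differed by 0.11 ± 0.15 (adjusted p = 0.463) and Socs2 and Socs3 by 0.30 ± 0.20 (adjusted p = 0.175). With 1 TPM added to each value, Socs1 exceeded Socs2 by 0.51 (adjusted p = 0.00057).

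TPM in these tables was scaled by the whole gene span, introns included, so levels of different genes were compared as reads per kilobase of annotated exon and per M recovered reads. On that scale Cish was at 13.7 ± 0.879 with IL-13 and 0.111 ± 0.0472 without (SD, n = 12 each). In the presence of IL-13 every library's value was above those of the other 7 SOCS family genes, and without IL-13 every value was below theirs. That order assumes that the counted reads lie in annotated exons, which was not tested. Socs1 was at 3.08 ± 0.549 with IL-13 and 0.733 ± 0.197 without, Socs2 at 1.72 ± 0.137 and 0.437 ± 0.0631, and Socs3 at 1.60 ± 0.194 and 0.521 ± 0.182 (SD, n = 12 each). Socs2 and Socs3 overlapped with each other in both conditions. The family members outside the 4 genes did not separate by IL-13. Socs4 was at 7.94 ± 0.603 with IL-13 and 7.86 ± 0.761 without, Socs5 at 6.25 ± 0.487 and 6.07 ± 0.307, Socs7 at 4.97 ± 0.645 and 4.49 ± 0.366, and Socs6 at 1.63 ± 0.121 and 1.67 ± 0.0933 (SD, n = 12 each). Socs4, Socs5 and Socs7, 3 of these 4 genes, passed the filter, and 0 of 3 were called in the IL-13 average, at 0.00, 0.02 and 0.11 on the log2(TPM + 1) scale. In that average 50.9% of all genes tested were called. Socs7 was called higher under median-ratio scaling (0.16, adjusted p = 0.0421), without the 3 outlying libraries (0.12, adjusted p = 0.00396) and without triple combination replicate 2 alone (0.18, adjusted p = 0.00753). Socs6, whose span is 262258 bases, stayed under 1 TPM and was not tested. In deposited TPM, Cish without IL-13 (0.298 to 1.82 TPM) overlapped Socs2 (1.07 to 1.77 TPM) and Socs6 (0.677 to 0.846 TPM).

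**Figure D4:**
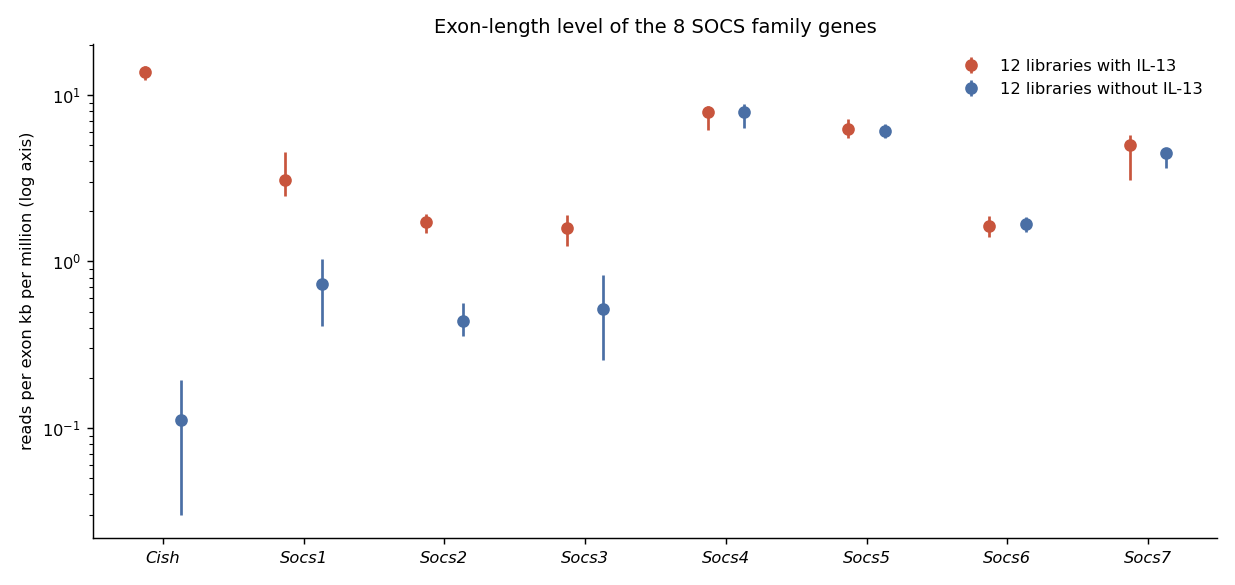
Level of the 8 SOCS family genes as reads per kilobase of exon and per M recovered reads (vertical log axis) in the 12 libraries with IL-13 (red) and the 12 without (blue); points are means and bars run from the lowest to the highest library. Cish, Socs1, Socs2 and Socs3 separate, with Cish at 13.7 against 0.111, while Socs4 to Socs7 overlap.

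The proteins that work with the SOCS box changed little at the transcript level. Of 8 genes of this ligase, 0 were called higher and 2 lower in the IL-13 average, Rbx1, a RING subunit (-0.08), and Nedd8, the cullin modifier (-0.07), with a list median of 0.02 on the log2(TPM + 1) scale against -0.05 for all genes. Cul2, Rnf7, Elob, Cul5, Ube2f and Eloc did not pass the test. Of all genes tested, 20.0% were called higher and 30.9% lower in the IL-13 average. Under median-ratio scaling 3 were called higher (Cul2, Cul5 and Rnf7) and 0 lower, so no direction holds for this list. Of the elongin subunits, Elob averaged 302 ± 17.4 TPM with IL-13 and 310.3 ± 15.7 TPM without, and Eloc 25.5 ± 1.47 and 25.2 ± 1.51 TPM. Cul5, the scaffold, averaged 7.89 ± 0.600 and 7.54 ± 0.584 TPM (SD, n = 12 each).

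Among the JAK kinases, 1 of 4 was called higher and 1 lower in the IL-13 average. In that average 20.0% of all genes were called higher and 30.9% lower. Jak2 averaged 10.6 ± 0.932 TPM with IL-13 and 7.62 ± 0.567 TPM without (SD, n = 12 each), a log2(TPM + 1) difference of 0.43 ± 0.05 (SE; limma, adjusted p = 6.59e-07). Tyk2 fell by 0.14 (adjusted p = 0.0326), a call lost in 10 of 32 alternative settings. Jak1 differed by -0.11 (adjusted p = 0.0932) and Jak3 by -0.11 (adjusted p = 0.110). Both were called lower in some of the 32 settings, Jak1 in 5 and Jak3 in 3. Without the 3 outlying libraries 1 of the 4 kinases was called higher and 3 lower. Among the STAT genes described here, Stat5a, the factor that drives Cish in other cells, averaged 20.7 ± 1.25 TPM with IL-13 and 17.1 ± 0.986 TPM without (SD, n = 12 each), a difference of 0.26 (adjusted p = 3.98e-06). Stat3 fell by 0.36 (adjusted p = 2.12e-06) and Stat6 by 0.24 (adjusted p = 0.000195), while Stat2 and Stat5b differed by -0.10 and -0.08 without passing the test. Of 12 other inhibitors tested of 13 listed, 3 rose and 6 fell. The phosphatase gene Ptpn6 (SHP-1) fell by 0.50 (adjusted p = 1.85e-12) and Pias3, an inhibitor of STAT3 binding, by 0.31. The JAK phosphatase genes Ptpn2 and Ptpn1 rose by 0.38 and 0.21.

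Receptors that signal through JAKs were mostly lower. Of 21 tested of 29 listed, 3 rose and 15 fell with IL-13 in the average, and 4 rose and 12 fell under median-ratio scaling. The rises include Lepr, at 0.793 TPM or less in the 12 libraries without IL-13. It passed the filter on low values only through libraries with IL-13, so its rise carries no weight. Among all genes tested, 20.0% were called higher and 30.9% lower in the average. The list median was -0.17 on the log2(TPM + 1) scale, against -0.05 for all genes. Of the 17 receptors with a mean of at least 5 TPM, which leave out Lepr, 2 rose and 13 fell. Il6st, which encodes the gp130 chain that SOCS3 binds, went against this. It averaged 66.8 ± 9.31 TPM with IL-13 and 25.4 ± 2.96 TPM without (SD, n = 12 each), a rise of 1.36 (limma, adjusted p = 2.13e-11). Csf3r, the G-CSF receptor and also a granulocyte marker, fell by 1.29 (adjusted p = 2.89e-11), Il3ra by 0.31 and Il10rb by 0.21. Of 17 listed cytokines 3 were tested; Csf1 rose by 0.42 (adjusted p = 0.000117), and Osm fell by 0.51 (adjusted p = 5.46e-06).

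Target lists of the STAT factors, compiled with earlier results of these data known, differed in their counts. The counts are of calls in the IL-13 average, in which 20.0% of all genes tested were called higher and 30.9% lower. Chil3, Pparg and Mrc1 also stand among the alveolar macrophage markers, and Il4ra, Mcl1 and Pim1 in more than 1 target list. Of the 11 STAT6 targets with a mean of at least 5 TPM over all libraries, Il4ra was called lower. Chil3, Mrc1, Pparg, Tgm2, Ch25h and Egr2, which averaged at least 5 TPM without IL-13 as well, were called higher. Irf4, Cdh1, Batf3 and Ccl22 were also called higher. They averaged 2.86, 3.64, 4.29 and 0.784 TPM without IL-13 and reached a mean of 5 TPM only through libraries with it. The other 4 tested, Retnla, Ccl24, Arg1 and Ccl17, averaged 0 to 0.0528 TPM in the 12 libraries without IL-13 and passed the filter on low values only through those with it, so they are not counted. Chil3 averaged 4600.0 ± 473 TPM with IL-13 and 372 ± 6.36 TPM without, and Irf4, a factor of alternative activation, 35.9 ± 4.07 and 2.86 ± 0.418 TPM (SD, n = 12 each). Ch25h, a sterol hydroxylase, rose by 4.10 and Pparg, the lipid-sensing receptor that specifies alveolar macrophages, by 1.35. Of 12 STAT5 targets tested, 4 rose and 6 fell, with a median of -0.15; the D cyclins Ccnd2 and Ccnd1 rose by 2.26 and 1.18, and Gadd45g and Mcl1, a survival factor, fell by 0.44 and 0.28. Of 10 STAT3 targets tested, 6 rose and 3 fell, with Nfil3 at 1.37, Fos at 0.87 and Cebpb at 0.45.

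**Figure D5:**
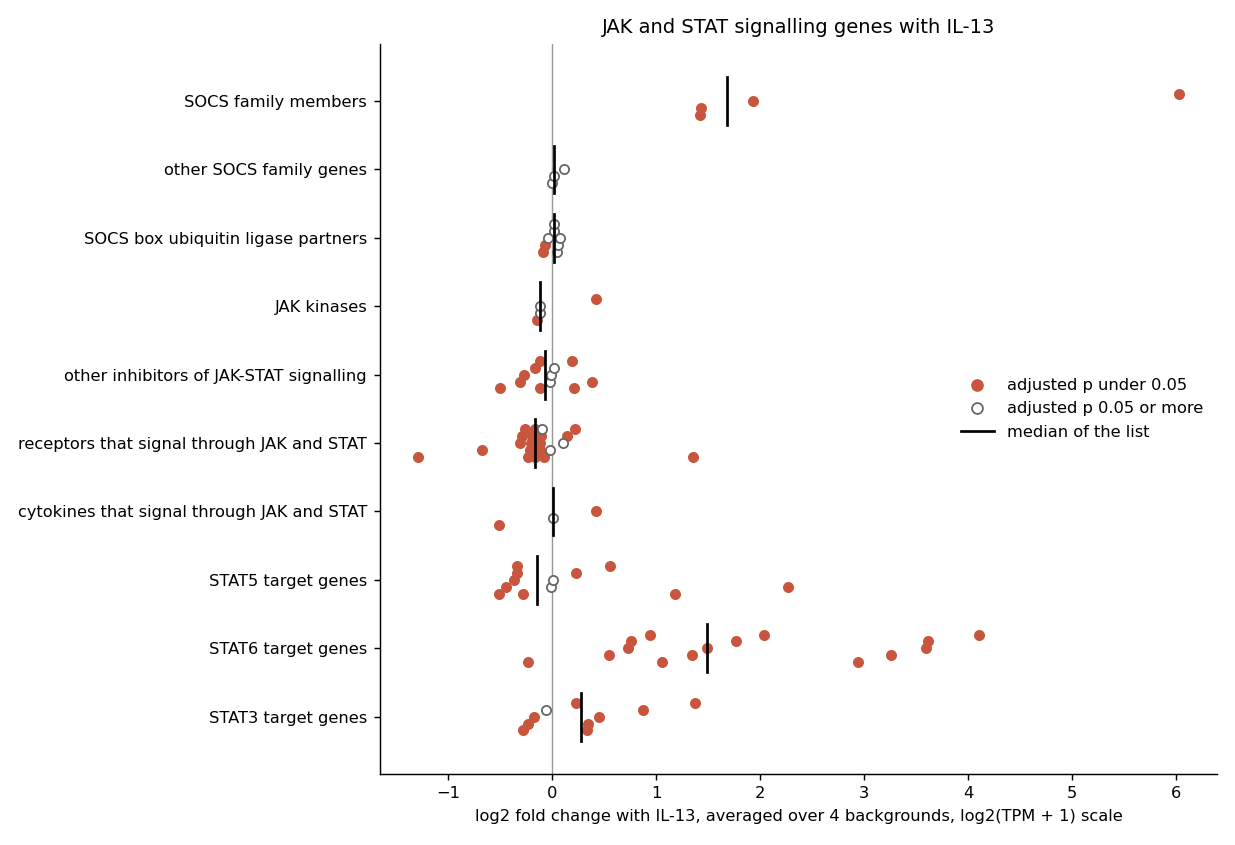
Log2 fold change with IL-13, averaged over 4 backgrounds, on the log2(TPM + 1) scale (horizontal axis) for each tested gene of 10 lists; filled points passed adjusted p under 0.05 in limma, open points did not, and the bar is the list's median. Cish stands at 6.03, the 4 members and most STAT6 targets lie to the right of 0, and the other SOCS family genes and the ubiquitin ligase partners lie near 0. The STAT6 row and its median of 1.49 include Retnla, Ccl24, Arg1 and Ccl17, which passed the filter only through libraries with IL-13. Over the 11 targets with a mean of at least 5 TPM the median was 2.04. Irf4, Cdh1, Batf3 and Ccl22 reached that mean only through libraries with IL-13. The receptor row includes Lepr, which passed the filter only through such libraries.

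Genes with the most similar pattern were found by Pearson's r of log2(TPM + 1) among tested genes with a mean of at least 5 TPM. Over all 24 libraries, which share the separation by IL-13, Cish was most like Smap2, Pdlim1, Rab3il1, Ier3 and Chil3 (r = 0.997 to 0.996). Smap2, for example, averaged 115 ± 4.75 TPM with IL-13 and 25.4 ± 1.34 TPM without (SD, n = 12 each). Socs2 was most like Rnase2a, Abcd2, Ocstamp, Plekha3 and Pparg (0.992 to 0.990), Socs1 most like Tmed2, Ier3, Asns, Serp1 and Erp44 (0.974 to 0.968) and Socs3 most like Srm, Creld2, Lap3, Idh3a and Phlda1 (0.957 to 0.943). The members correlated with each other at 0.893, for Socs2 and Socs3, to 0.984, for Cish and Socs2. Within the 12 libraries with IL-13 this likeness was not seen: the members' r with each other lay between -0.234, for Cish and Socs1, and 0.379, for Cish and Socs2. There the most similar genes were Kptn for Cish (0.873), Cd9 for Socs1 (0.912), Smpdl3a for Socs2 (0.818) and B3galt6 for Socs3 (0.897). Each was the highest r among 7795 or 7796 candidates over only 12 libraries, and how high unrelated genes would reach was not tested. Socs3 rested on 36 to 58 reads per library there, and the part of counting error in these r values was not tested.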

How the data were processed

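Each library had 1 deposited table with TPM values for 17017 genes, which the authors scaled, per the file headers, by a length column that equals the gene span with its introns. Alignment used STAR and mm10 (per the submitters' processing notes); versions, counter and strandedness were not given in the sources used here. Multiplied by span, 89.9% to 91.4% of the low TPM values (20 reads or fewer) came within 0.05 of a whole read number, and the reads recovered in this way served for depth and for a voom fit.

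The main test used limma 3.58.1 (R 4.3.3) with a mean-variance trend on log2(TPM + 1). It covered the 13215 genes that reached 1 TPM in 3 or more libraries, with 8 group means in 1 fit of 24 libraries, no covariates, 16 residual degrees of freedom and Benjamini-Hochberg adjustment over all genes in each of 25 comparisons. Genes were called at an adjusted p under 0.05. Fold changes on recovered reads come from voom. The scripts were tested on simulated data. The alternatives were a pseudocount of 0.1, no filter on low values, a mean of at least 5 TPM, median-ratio scaling, a fit of the compared groups alone, voom, the libraries numbered up to 24 in their titles, and each library left out. Leaving out 3 outlying libraries and the comparison of members by pairs were added after seeing the data. The members and gene lists were chosen with earlier results of these data known. Named genes were the members, all genes of the other SOCS, ligase, JAK and STAT lists, up to 4 called genes with the smallest p of each other list, and the 5 genes most like each member, leaving out provisional symbols; 1 STAT gene and 1 target list are not reported here. Promoters came from RefSeq (GRCm38.p6).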

Additional observations from a re-analysis of the deposited data

How the results depend on the processing

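The 32 called member results, all of them contrasts with IL-13, kept their direction and stayed called in all 512 recomputations over 32 alternative settings; the lowest log2 fold change was 0.996 and the highest adjusted p was 0.0137. The 68 member results that were not called stayed so in all 1319 recomputations, with a lowest adjusted p of 0.168 and a change of sign in 105. Among the pairs, the difference of Socs1 and Socs3 ran from 0.35 to 0.51 (adjusted p = 0.00807 to 0.0905) when each library was left out in turn, and was 0.28 without the 3 outlying libraries; the cause was not tested. That of Socs1 and Socs2 was 0.51 with 1 TPM added before the ratio. The differences of Cish from the other 3 genes stayed called in every setting run. Of the listed genes, 21 changed side of the threshold in at least 1 of 32 settings; Nedd8 did so in 20 and Tyk2 in 10.

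Counts over all genes moved more. Voom called 7063 genes in the IL-13 average, in place of 6723. With the compared groups fitted alone, IL-33 added to IL-13 called 144 genes in place of 340, IL-33 added to IL-13 and IL-17A 49 in place of 469, and all 3 cytokines against untreated 1508 in place of 3710. IL-13 added to IL-33 and IL-17A called 1847 in place of 4321, and 2074 with only the libraries numbered up to 24 in their titles. Other counts rose with the compared groups alone: IL-33, IL-17A and both against untreated called 3, 5 and 3 genes in place of 0, IL-17A added to IL-33 6 in place of 0 and IL-33 added to IL-17A 5 in place of 1. The cause was not tested. Leaving out 1 library took IL-33 added to IL-13 to 212 without IL-13 replicate 1 or replicate 3 and to 217 without IL-33 and IL-13 replicate 3. It took IL-33 added to IL-13 and IL-17A to 294, 308 and 287 without IL-13 and IL-17A replicate 1, 2 and 3, and to 311 without triple combination replicate 2. No paired analysis was possible because the labels give no replicate numbers shared across groups. Low read numbers limit Cish without IL-13 (2 to 16 reads) and Socs3 (8 to 26 reads).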
